A study of Mus musculus with 11 samples.

Results

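The immunity-related GTPases of the IRG family are interferon-inducible enzymes, and 8 mouse genes of the family, chosen by symbol, are described here: Igtp, Irgm1, Irgm2, Iigp1, Tgtp1, Tgtp2, Ifi47 and Gm12250. All 8 were found among the 55486 genes of the count table, and 6 of them passed the filter on low counts and were tested, with Iigp1 and Tgtp1 left out as too low. Blood eosinophils came from FVB/N mice with metastases of a mammary tumour and were sorted by flow cytometry on CD45, CD11b and F4/80, with little Ly6g, no CD3 and strong side scatter. Total RNA was made into Smart-seq2 libraries, a full-length cDNA method. The CIS+IT group held 7 libraries, from mice given cisplatin, a DNA-damaging chemotherapy, with antibodies to the immune checkpoint receptors PD1 and CTLA4. The Control Ab group held 4 libraries, from mice given control antibody alone. Blood of both groups was taken at day 21 after treatment began. Since cisplatin and both antibodies were given together, their separate effects cannot be told apart. The labels used here do not state the age of the mice, the tumour model or any pooling of animals.

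IRG genes are switched on in mouse cells mainly by interferon gamma, through promoter elements called gamma-activated sites (GAS) and interferon-stimulated response elements (ISRE). The family falls into a pair of classes named for a motif of the GTP-binding site. GKS proteins (Iigp1, Tgtp1, Tgtp2, Ifi47 and Gm12250) carry a lysine there and load onto the membrane of vacuoles that hold parasites such as Toxoplasma or bacteria such as Chlamydia, which then break open. GMS proteins (Irgm1, Irgm2 and Igtp) carry a methionine in its place, sit on the cell's own membranes and hold the GKS proteins inactive there.

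The codons of that motif are shown because they define both classes. They were read from the longest open reading frame of each gene's GENCODE M21 transcripts, and capitals mark the methionine or lysine codon.
Igtp: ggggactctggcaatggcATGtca
Irgm1: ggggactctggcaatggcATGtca
Irgm2: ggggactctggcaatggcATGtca
Tgtp1: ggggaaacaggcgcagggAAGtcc
Tgtp2: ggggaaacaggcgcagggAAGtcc
Ifi47: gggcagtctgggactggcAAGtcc
Gm12250: ggggagacaggggcagggAAGtcc
The 3 GMS genes had the same bases throughout the motif. Tgtp1 and Tgtp2 were also the same there, and their whole reading frames were identical at 1244 of 1248 aligned bases (99.7%). Among the genes listed, the next closest pair was Igtp and Irgm2, at 67.3%. Iigp1 was left out of the listing and of these comparisons. Tgtp2 and Gm12250 shared 62.9% of aligned bases.

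Near-identity bears on how well the counts of single members can be read. Of the 50-base windows of Tgtp1 transcripts, 81.2% also occurred in another gene, mostly Tgtp2, and the share for Tgtp2 was 86.6%. Reads of this pair can therefore be split or dropped between the copies, and their values are uncertain one by one. If such reads were dropped, the sum of the pair is too low as well. Igtp shared 11.8% of its windows with Irgm2, with which it also shares 162 exonic bases on the same strand. The shares were at most 2.54% for Irgm1, Iigp1, Ifi47 and Gm12250. Ifi47 overlaps exons of Olfr56 (111 bases, same strand) and Gm12188 (106 bases, other strand), and whether the counting used strand is not given.

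The start-site region was examined for letters of the interferon-responsive elements, since the members are known targets of interferon gamma. RefSeq windows of the build GRCm38.p6, from 250 bases before to 50 after each start, were matched by symbol for 7 of the 8 members. The ISRE core was searched as GAAANNGAAA and the GAS core as TTCNNNGAA, each on both strands. The stretches below run in the direction of transcription, with capitals for the matched letters.
Igtp: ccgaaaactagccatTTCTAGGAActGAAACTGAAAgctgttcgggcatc
Irgm2: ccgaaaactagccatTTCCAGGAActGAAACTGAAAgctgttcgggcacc
Tgtp1: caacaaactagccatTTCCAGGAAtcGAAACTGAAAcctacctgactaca
Tgtp2: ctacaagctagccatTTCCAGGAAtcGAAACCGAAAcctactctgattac
Irgm1: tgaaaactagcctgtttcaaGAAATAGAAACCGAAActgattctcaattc
Gm12250: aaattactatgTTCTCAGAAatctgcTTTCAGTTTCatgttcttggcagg
They lie at chr11:58199496-58199545 (plus strand) for Igtp, chr11:58214887-58214936 (plus) for Irgm2, chr11:48992300-48992349 (minus) for Tgtp1, chr11:49064259-49064308 (minus) for Tgtp2, chr11:48871421-48871470 (minus) for Irgm1 and chr11:58183771-58183820 (plus) for Gm12250. In Igtp, Irgm2, Tgtp1 and Tgtp2 a GAS core was followed directly by an ISRE core, and the motifs did not overlap. Irgm1 had 2 overlapping ISRE matches and no GAS match. Gm12250 had a GAS match between 2 ISRE matches on the opposite strand, one of which lies outside the printed stretch. Neither motif was found in the window of Ifi47. The Gm12250 window (chr11:58183593-58183892) lies before the counted gene model, which starts at 58187739. The Irgm2 window (chr11:58214727-58215026) lies inside the counted gene model, which starts at 58199618.

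The ISRE core was present in 6 of the 7 member windows and in 3.44% of all 32851 windows of that length. The GAS core was present in 5 of 7 and in 8.3% of all windows. Both stood together in 5 of 7 member windows and in 0.454% of all windows. The member windows are not separate cases, since the stretches of Igtp and Irgm2, and those of Tgtp1 and Tgtp2, are much alike. A match describes the letters of the window and says nothing of binding in these cells.

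**Figure D1:**
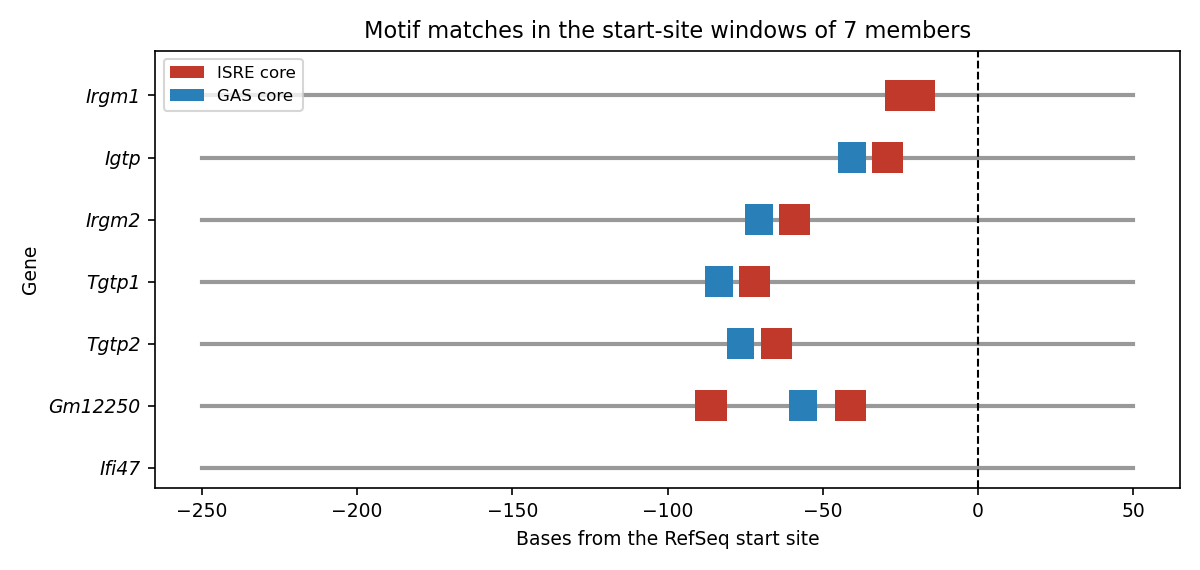
Positions of ISRE and GAS core matches in the RefSeq windows of 7 IRG members, in bases from the start site (dashed line; negative values lie before it). Red blocks are ISRE cores, blue blocks are GAS cores and grey lines are the windows; the GAS and ISRE blocks stand side by side in Igtp, Irgm2, Tgtp1 and Tgtp2, and the Ifi47 window holds none.

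The sort label was checked against 9 eosinophil markers, of which Adgre1 (F4/80) and Itgam (CD11b) had been gated on. All 9 passed the filter, and 8 were detected in all 11 libraries. Epx had no count in CIS+IT 3, which also had the lowest eosinophil sum. Their summed level was 2937 to 9168 CPM (read counts scaled to a common library size with TMM factors) in CIS+IT and 5768 to 8530 CPM in Control Ab. Summed neutrophil markers, led by Retnlg and S100a8, stood at 4529 to 15664 CPM over the 11 libraries. Most of that sum was Retnlg, with means of 9271 CPM in CIS+IT and 10261 CPM in Control Ab. S100a8 had means of 143 CPM and 468 CPM, and Ly6g was detected in 3 of the 11 libraries. Summed monocyte and macrophage markers, led by Lyz2, exceeded the eosinophil sum in CIS+IT 3, CIS+IT 4, CIS+IT 5, CIS+IT 6 and Control Ab 3. They stood at 12928 against 4974 CPM in CIS+IT 6 and at 16628 against 5794 CPM in Control Ab 3. The markers thus do not settle how pure the sorted cells were. Library totals were 5356118 to 8016658 counts in CIS+IT and 3733156 to 6721060 in Control Ab. Control Ab 3 and Control Ab 4 stood apart, with 28.2% and 20.1% of counts on haemoglobin genes, against 4.42% or less elsewhere, and with 10775 and 11263 genes detected against 12639 or more. The identifiers in the table's header begin with 19 in all CIS+IT libraries and with 20 in all controls, so whatever those digits mark cannot be told apart from treatment. Each library is treated here as 1 mouse, and p-values measure the spread between these libraries. In bulk RNA, fewer cells of a type and less RNA per cell cannot be told apart.

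None of the 6 tested IRG genes passed the test between CIS+IT and Control Ab, but each had a higher fitted level in CIS+IT. The median log2 fold change of the 6 was 0.93, against 0.03 over all 11389 genes tested. Over the whole table edgeR's quasi-likelihood test called 0 genes (0%) at an adjusted p of 0.05. At an unadjusted p of 0.05, 3.70% of all genes were higher in CIS+IT, and 1 of the 6 members, Irgm2, was among them. DESeq2 called 82 genes (0.637%), with none of the 7 members it fitted among them. A fold change above 0 was found for 6 of 6 members and for 51.8% of all genes. A log2 fold change above 1 was found for 2 of 6, Irgm2 and Tgtp2, and for 11.2% of all genes. In 0.509% of all genes every CIS+IT library lay above every control, and this held for 0 of the 6 members.

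Among the GMS genes, Irgm2 had the largest fold change and the tightest controls. Irgm2 (ENSMUSG00000069874, chr11:58199618-58222782, plus strand, GRCm38) is a GMS protein of Golgi membranes. Its level was 30.1, 39.9, 32.5 and 34.5 CPM in Control Ab 1 to 4, and 25.7 at the lowest, 88.7 at the median and 142 at the highest in CIS+IT. In 5 of 7 CIS+IT libraries Irgm2 lay above the highest control, CIS+IT 3 lay within the control range, and CIS+IT 4 lay below it. The means were 83.0 ± 41.6 CPM (SD, n = 7) and 34.2 ± 4.20 CPM (SD, n = 4). The log2 fold change was 1.28 ± 0.42 (SE), with an edgeR adjusted p of 0.626, or 0.00872 unadjusted.

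Irgm1 (ENSMUSG00000046879, chr11:48861968-48871683, minus strand) is the GMS regulator whose loss in mice leaves macrophages unable to control mycobacteria. It stood at 60.5, 28.9, 44.1 and 66.2 CPM in Control Ab 1 to 4, and at 21.3, 68.3 and 249 CPM as lowest, median and highest in CIS+IT. In 4 of the 7 CIS+IT libraries Irgm1 was above the highest control, in 2 of them by a small margin, and the groups overlapped. The log2 fold change was 0.88 ± 0.55 (SE; edgeR adjusted p = 0.830).

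Igtp (ENSMUSG00000078853, chr11:58199556-58207591, plus strand), also called Irgm3, is a GMS protein of the endoplasmic reticulum and lipid droplets. It was counted at 77.9, 73.3, 123 and 161 CPM in Control Ab 1 to 4, and at 63.9, 139 and 303 CPM as lowest, median and highest in CIS+IT. CIS+IT 1 and CIS+IT 6 lay above all controls and the other 5 CIS+IT libraries did not. The means were 161 ± 89.3 CPM (SD, n = 7) and 109 ± 41.6 CPM (SD, n = 4), and the log2 fold change was 0.56 ± 0.40 (SE; edgeR adjusted p = 0.864).

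Among the GKS genes, Ifi47 was the most abundant per length. Ifi47 (ENSMUSG00000078920, chr11:49076587-49096974, plus strand), also called Irgd, stood at 18.0, 8.35, 20.8 and 93.4 CPM in Control Ab 1 to 4, and at 12.5, 61.2 and 178 CPM as lowest, median and highest in CIS+IT. Control Ab 4 was higher than 5 of the 7 CIS+IT libraries, so the groups overlapped over most of their range. The log2 fold change was 0.97 ± 0.75 (SE; edgeR adjusted p = 0.887).

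Tgtp2 (ENSMUSG00000078921, chr11:49057194-49064206, minus strand) and Tgtp1 (ENSMUSG00000078922, chr11:48985327-48994172, minus strand) encode forms of Irgb6, an early-loading GKS effector. Tgtp2 was at 2.28, 0, 7.61 and 12.7 CPM in Control Ab 1 to 4, and at 2.90, 5.45 and 40.7 CPM as lowest, median and highest in CIS+IT. CIS+IT 1 and CIS+IT 6 were above all controls and the other 5 libraries were within their range. The log2 fold change was 1.12 ± 1.14 (SE; edgeR adjusted p = 0.927), and with the counts of both copies summed it was 1.13 (edgeR adjusted p = 0.924). Tgtp1 had 15 counts in all, 13 in CIS+IT and 2 in Control Ab 1. The ratio of pooled levels was 2.63, with a 95% counting interval of 0.596 to 24.0, which covers counting error only.

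Gm12250 (ENSMUSG00000082292, chr11:58187739-58189012, plus strand) is listed in the table as a processed pseudogene, while RefSeq has it as protein coding under the synonym Irgb10, a GKS effector known for exposing bacterial DNA and lipids to inflammasomes. It stood at 3.93, 0.141, 20.0 and 13.8 CPM in Control Ab 1 to 4, and at 0, 6.38 and 68.7 CPM as lowest, median and highest in CIS+IT. CIS+IT 1 and CIS+IT 6 exceeded all controls, CIS+IT 2 had no count, and the median of CIS+IT was below that of the controls (8.87 CPM). The log2 fold change was 0.79 ± 1.28 (SE; edgeR adjusted p = 0.951) and its sign depended on 1 library: it was -0.33 without CIS+IT 6.

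Iigp1 (ENSMUSG00000054072), also called Irga6 and the best studied GKS effector, had 120 counts in all. They came from CIS+IT 6 (88 counts, 14.7 CPM), CIS+IT 1 (26 counts, 3.21 CPM) and CIS+IT 3 (6 counts, 0.883 CPM). The other 4 CIS+IT libraries and all 4 controls were at 0. Against a floor of 3 counts over the whole control group (0.149 CPM), the pooled level in CIS+IT (2.41 CPM) was at least 16.2-fold higher, a bound that rests on these 3 libraries and has no test. The gene lies at chr18:60376027-60392634 on the plus strand, apart from the other 7 members, which all lie on chromosome 11.

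**Figure D2:**
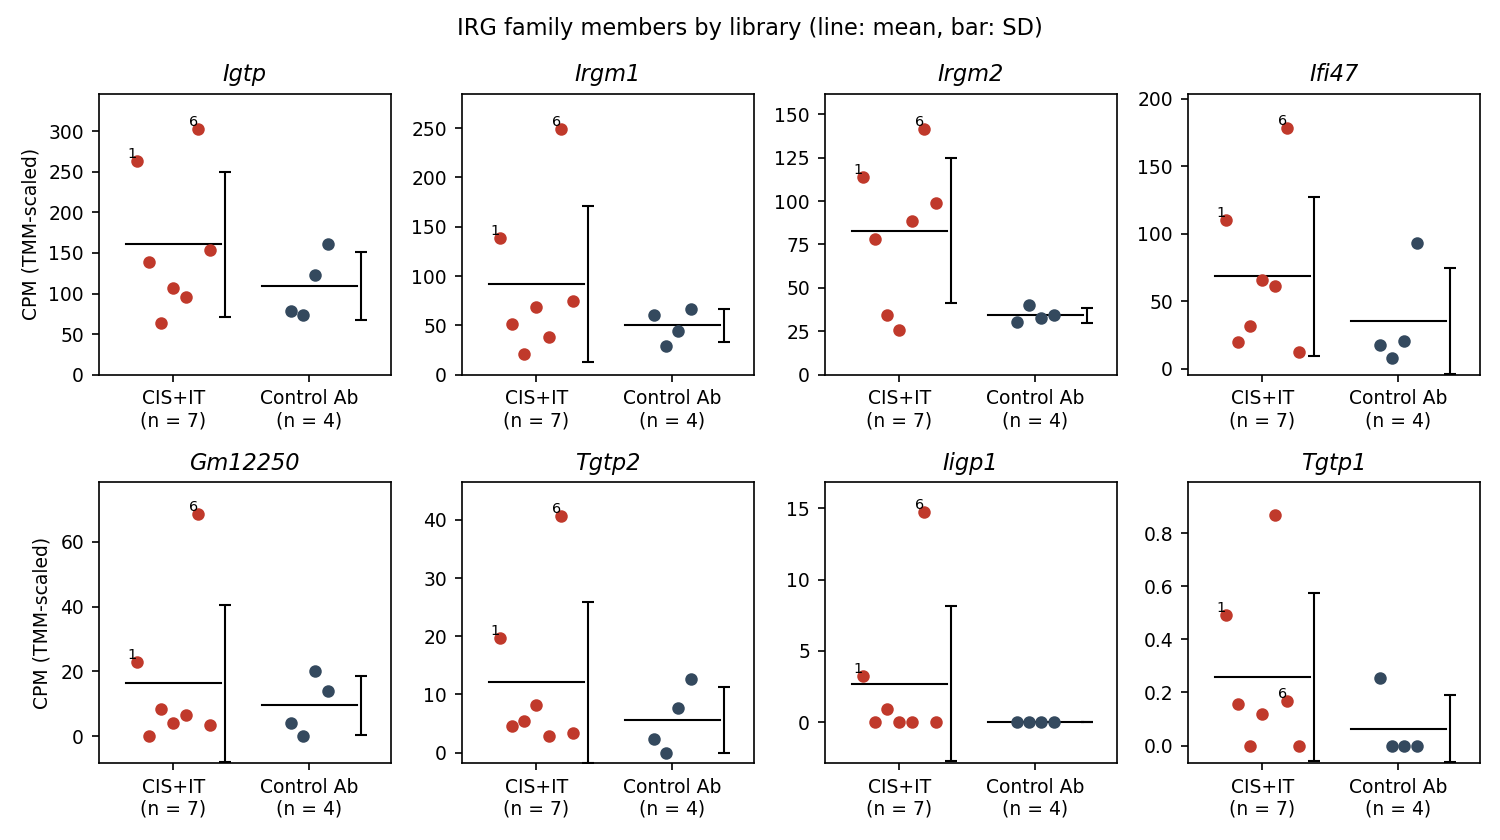
Level of each of the 8 IRG members in CPM, with its own linear scale for each gene, in 7 CIS+IT (red) and 4 Control Ab (dark) libraries; each point is a library, the line is the group mean and the bar the SD, and the digits 1 and 6 mark CIS+IT 1 and CIS+IT 6. CIS+IT 6 is the highest point for every member but Tgtp1, and the groups overlap for every member.

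The top of the library order was shared through most of the family, and the order below it was not. Below CIS+IT 1 and CIS+IT 6, CIS+IT 7 came next for Irgm2 (98.9 CPM) but was the lowest CIS+IT library for Ifi47 (12.5 CPM). CIS+IT 6 had the highest value for 7 of the 8 members and CIS+IT 1 was among the 2 highest for 8 of 8. The pattern was noticed in the values: CIS+IT 1 and CIS+IT 6 were the 2 highest libraries for 6 of 6 tested members and for 1.40% of all genes tested. Summed over the family, CIS+IT 6 stood at 997 CPM and CIS+IT 1 at 672 CPM. CIS+IT 2, 3, 4, 5 and 7 stood at 292, 166, 279, 293 and 346 CPM, and Control Ab 1 to 4 at 193, 151, 248 and 382 CPM. The other 5 CIS+IT libraries thus lay within the range of the controls in summed level.

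Leaving out CIS+IT 6, or Control Ab 3 and Control Ab 4 together, moved most members' fold changes by more than 1.5 times. Without CIS+IT 6 the log2 fold changes were 0.33 for Igtp, 0.39 for Irgm1, 1.10 for Irgm2, 0.40 for Tgtp2 and 0.54 for Ifi47. Without Control Ab 3 and Control Ab 4, the libraries rich in haemoglobin, they were 1.12 for Igtp, 1.07 for Irgm1, 1.28 for Irgm2, 3.41 for Tgtp2, 2.41 for Ifi47 and 3.01 for Gm12250. Irgm2 was the member that moved least under both. No member passed edgeR's test in either case, with the lowest adjusted p at 0.494 for Ifi47 without these 2 controls. Identifier letters split CIS+IT 1 and the 4 controls (KDV) from CIS+IT 2 to 7 (VIS), and within KDV, which holds 1 CIS+IT library, the log2 fold change was 1.30 for Igtp, 1.50 for Irgm1, 1.76 for Irgm2, 1.83 for Tgtp2, 1.68 for Ifi47 and 1.30 for Gm12250.

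Per length of exon, Igtp was the most abundant member in all 11 libraries. Its mean over the 11 was 70.2 CPM per kb, followed by Ifi47 at 22.8, Irgm2 at 17.7, Irgm1 at 13.2, Gm12250 at 10.8, Tgtp2 at 3.32, Iigp1 at 0.294 and Tgtp1 at 0.0584 CPM per kb. Ifi47 was above Irgm2 in 6 of 11 libraries, Irgm2 above Irgm1 in 7 and Irgm1 above Gm12250 in 8, so these neighbours are not in a fixed order. Gm12250 was above Tgtp2 in 10 of 11 libraries. The places of Tgtp2 and Tgtp1 are uncertain, since reads shared by these copies may have been dropped. Igtp alone held 30.4% to 49.7% of the family's counts.

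The balance between regulators and effectors was compared as the ratio of summed GMS to summed GKS levels per kb. It ran from 1.62 to 13.0 in CIS+IT, with a median of 2.51, and from 1.90 to 14.9 in Control Ab, with a median of 3.99. The lowest ratio was in CIS+IT 6 (1.62), and CIS+IT 2, CIS+IT 7 and Control Ab 2 had ratios of 10.3, 13.0 and 14.9. GMS levels varied less than GKS levels, from 44.5 to 231 CPM per kb, against 3.49 to 142 CPM per kb. The groups overlapped in this ratio. The GKS sum includes Tgtp1 and Tgtp2, so it is too low and the ratio too high if their shared reads were dropped.

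**Figure D3:**
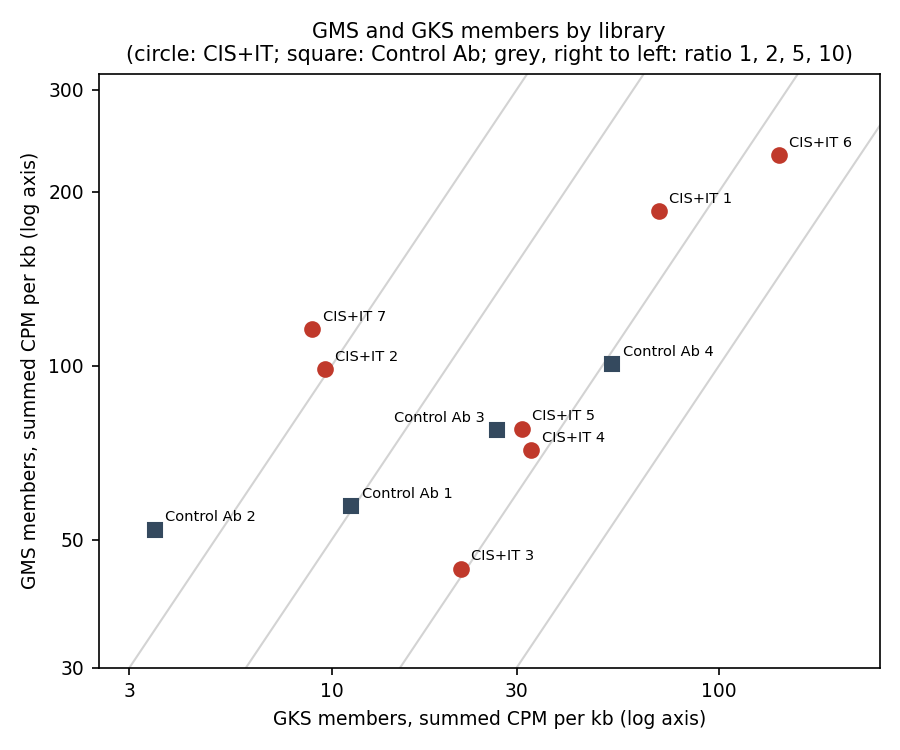
Summed level of the 3 GMS members against that of the 5 GKS members in each library, in CPM per kb, both on log axes; circles are CIS+IT, squares Control Ab, and grey lines mark equal ratios. CIS+IT 1 and CIS+IT 6 lie at the upper right, and CIS+IT 2, CIS+IT 7 and Control Ab 2 lie at ratios of about 10 and above.

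Levels of different members, as log2(CPM + 1) over the 11 libraries, were correlated to different degrees. The median Pearson r over the 15 pairs of tested members was 0.648. The closest pair was Igtp and Irgm1, with r = 0.906, and 0.961 within the 7 CIS+IT libraries. Tgtp2 and Ifi47 followed a like course (r = 0.858). Irgm2 and Gm12250 were the least alike (r = 0.269). These are descriptions over 11 libraries that share depth and sorting.

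Genes outside the family were ranked by Pearson r with the members' mean standardised level, among 7740 genes of at least 10 CPM. Of the 8 closest genes, 7 are given here. H2-K1, a classical major histocompatibility complex class I gene, had r = 0.862 (Spearman rho = 0.882), and H2-T23, a non-classical one, had r = 0.857 (rho = 0.655). The others were Oasl2, an antiviral gene (0.856), Havcr2, an inhibitory receptor (0.854), Sppl2a, an intramembrane protease (0.853), Tnfrsf1b, a tumour necrosis factor receptor (0.849), and Aacs, an acetoacetyl-CoA synthetase (0.841). Without CIS+IT 1 and CIS+IT 6 these were 0.650 for H2-K1, 0.461 for H2-T23, 0.836 for Oasl2, 0.908 for Havcr2, 0.196 for Sppl2a, 0.662 for Tnfrsf1b and 0.893 for Aacs. Of the 8 closest genes, 3 were also among the 8 closest when only the 7 CIS+IT libraries were ranked.

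In the axis that induces the family, the ligand gene Ifng had 0 counts in all 11 libraries, and 0 of the 12 other genes passed edgeR's test. Their median log2 fold change was 0.46, with 11 above 0 and 1 below. The receptor chain genes had log2 fold changes of 0.28 ± 0.38 (SE) for Ifngr1, the most abundant gene of the list, and -0.05 ± 0.39 for Ifngr2. The kinase genes stood at 0.28 for Jak1 and 1.04 for Jak2, with edgeR adjusted p-values of 0.901 and 0.626.

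The transcription factor genes Irf1, Irf8, Irf9 and Stat2 had log2 fold changes of 0.06, 0.28, 0.54 and 0.38. Nlrc5, an activator of class I genes, stood at 1.26, Ciita, an activator of class II genes, at 1.10, and Socs1, an inhibitor of the JAK kinases, at 0.85. For Irf9 and Nlrc5 the 2 highest libraries were CIS+IT 1 and CIS+IT 6.

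**Figure D4:**
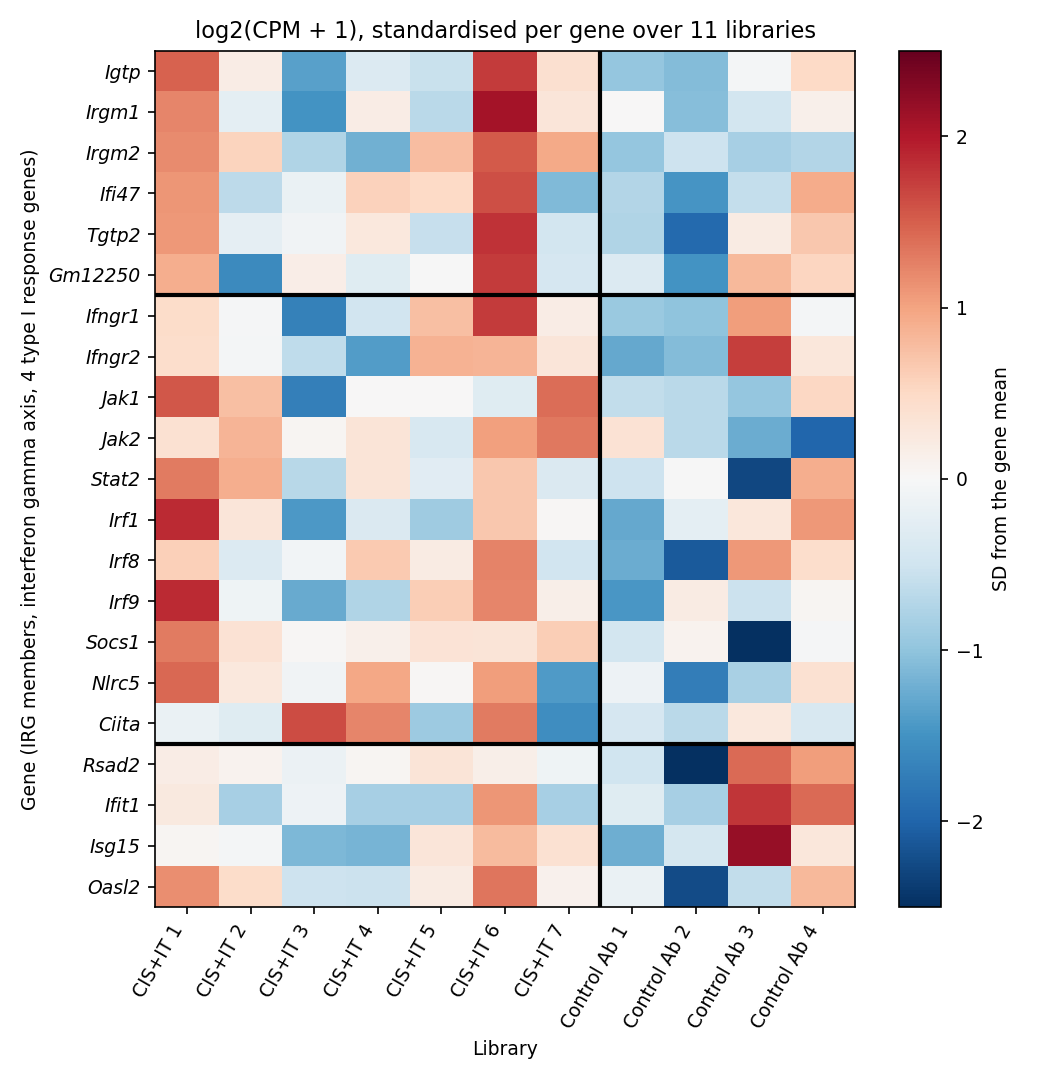
Level of 6 IRG members, 11 genes of the interferon gamma axis and 4 genes of the type I interferon response, shown as log2(CPM + 1) standardised per gene over the 11 libraries, with red above and blue below the gene's mean; the vertical line divides CIS+IT from Control Ab. The columns of CIS+IT 1 and CIS+IT 6 are red in all 6 IRG rows. Control Ab 3 is the darkest red in Rsad2, Ifit1 and Isg15 and blue in Oasl2 (12.8 CPM). These 4 genes do not stand for the whole type I list. Of its other tested genes, Ifit2, Ifit3 and Irf7 were also highest in Control Ab 3. Mx1, Oas1a, Usp18, Rtp4, Bst2 and Zbp1 were highest in CIS+IT 6, and Cmpk2 in CIS+IT 1. In none of the 6 IRG rows is Control Ab 3 the darkest red, though it is red in Gm12250 (20.0 CPM).

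Guanylate binding proteins (GBPs), the large GTPases that act on the same vacuoles as IRG proteins, had a median log2 fold change of 0.82. Of 11 genes, 8 were tested, 8 had fold changes above 0, and 0 passed. The most abundant were Gbp9, at 0.26 ± 0.42 (SE), and Gbp7, at 0.59 ± 0.41 (SE). Gbp5, picked out after its values were seen, was at 0 in all 4 controls and in CIS+IT 5, and reached 14.2 CPM in CIS+IT 6. CIS+IT 1 and CIS+IT 6 were the 2 highest libraries for 3 of the 8.

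Of 11 other IRG-like genes, 5 were tested and 0 passed, 3 (F830016B08Rik, Gm4841 and Gm12187) had 0 counts in every library, and 4 of the 5 tested had fold changes above 0 (median 1.31). The most abundant, 9930111J21Rik2, had means of 30.3 ± 15.7 CPM (SD, n = 7) and 10.7 ± 4.47 CPM (SD, n = 4), and a log2 fold change of 1.50 ± 0.52 (SE; edgeR adjusted p = 0.626). The next, 9930111J21Rik1, stood at 1.31 ± 0.90 (SE). The 2 highest libraries were CIS+IT 1 and CIS+IT 6 for 2 of the 5.

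The ATG8 conjugation system is needed for IRG and GBP proteins to reach their target vacuoles. Of its 10 genes, all tested, 2 had fold changes above 0 and 8 below (median -0.28), and 0 passed. The most abundant, Map1lc3b and Gabarap, stood at -0.23 ± 0.28 (SE) and -0.29 ± 0.19 (SE). Gabarapl2, picked out after its values were seen, had the lowest fold change, -1.28 (edgeR adjusted p = 0.626), and its 2 highest libraries were Control Ab 3 (311 CPM) and Control Ab 4 (269 CPM), those rich in haemoglobin.

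The type I interferon response list was evenly divided: 7 of its 14 tested genes had fold changes above 0 and 7 below (median 0.07), and 0 passed. Its most abundant gene, Rsad2, an antiviral enzyme, stood at 59.7, 0.141, 2634 and 1267 CPM in Control Ab 1 to 4, against 123 to 309 CPM in CIS+IT. The next, Irf7, had a log2 fold change of -0.13 ± 0.77 (SE). For 5 of the 14, Oasl2, Usp18, Rtp4, Cmpk2 and Zbp1, the 2 highest libraries were CIS+IT 1 and CIS+IT 6. Among other interferon gamma targets, 12 of 16 were tested, 10 had fold changes above 0 and 2 below (median 0.38), and 0 passed. In 0 of the 12 were CIS+IT 1 and CIS+IT 6 the 2 highest libraries. B2m, the class I light chain, stood at -0.18 ± 0.28 (SE), and Cd74, the class II invariant chain, at 1.58 ± 0.60 (SE; edgeR adjusted p = 0.626).

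**Figure D5:**
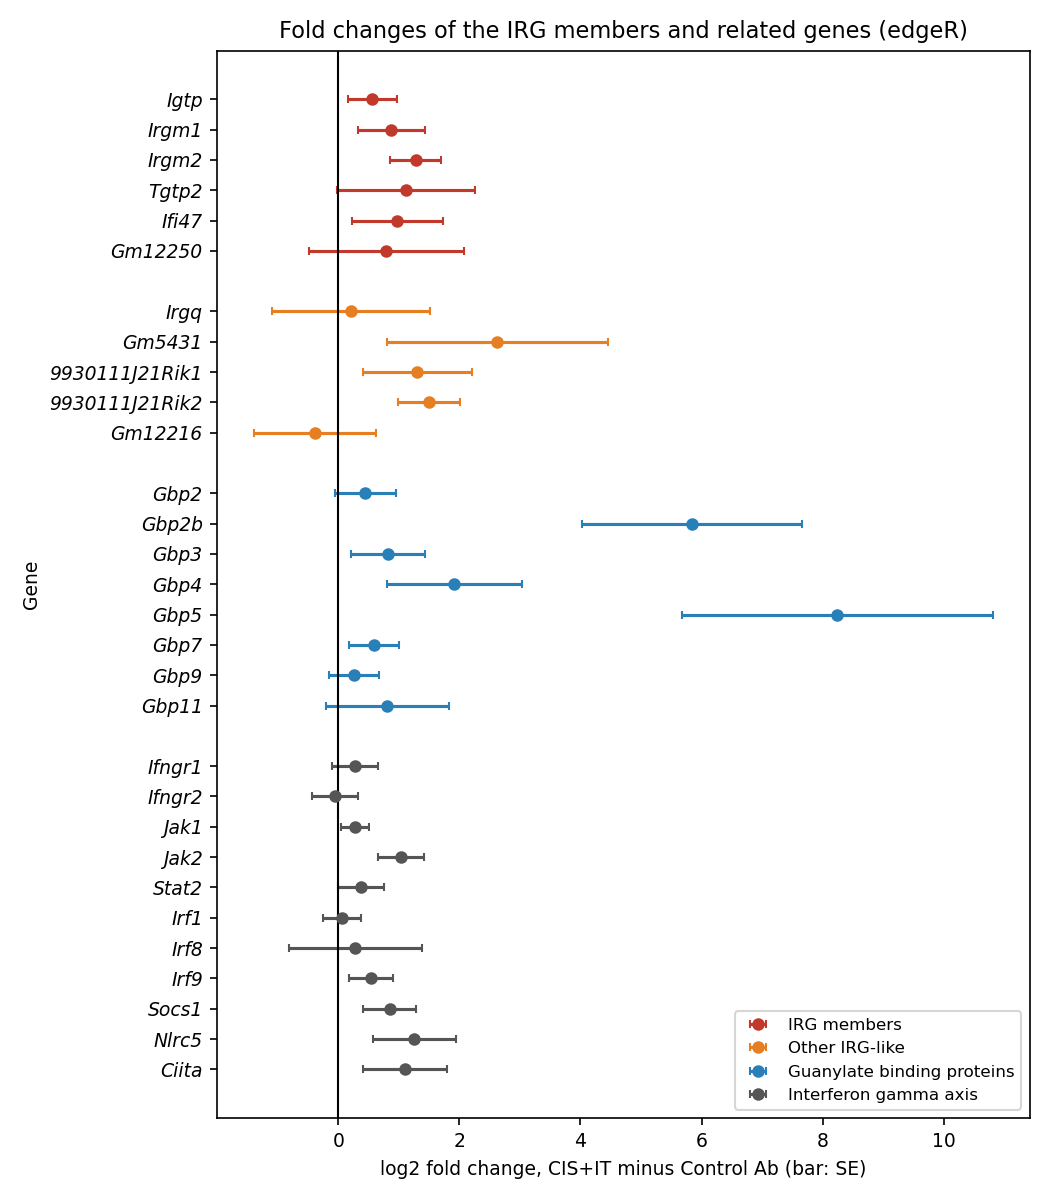
log2 fold change of CIS+IT minus Control Ab from edgeR, with its SE, for the 6 tested IRG members, 5 other IRG-like genes, 8 GBP genes and 11 genes of the interferon gamma axis. All 6 members lie above 0, the widest bars belong to genes with few counts such as Gbp5 and Gbp2b, and none of the genes drawn passed the adjusted threshold.

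Markers of other blood cells were set beside these values. Monocyte and macrophage markers (10 of 10 tested, 8 with fold changes above 0, median 0.61, 0 passing) summed to 1749 to 12928 CPM in CIS+IT, highest in CIS+IT 6, and to 828 to 16628 CPM in Control Ab, highest in Control Ab 3. CIS+IT 1 stood at 4211 CPM, below the CIS+IT median of 5444 CPM, and Control Ab 3, with the highest sum of all, had a summed IRG level of 248 CPM. Lyz2 and Csf1r led the list, and C1qa was at 0 in Control Ab 1. Most of the mean sum was Lyz2, with means of 4562 CPM in CIS+IT and 4617 CPM in Control Ab. Lyz2 reached 14704 CPM in Control Ab 3, so the order of the sums mainly follows this gene. For 1 of the 10, Csf1r, the 2 highest libraries were CIS+IT 1 and CIS+IT 6. Pearson r with the members' mean standardised level was 0.769 for Cx3cr1, 0.742 for Csf1r, 0.723 for Ly6c2, 0.605 for Cd68 and 0.539 for Lyz2. It was 0.505 for Fcgr1, 0.295 for Ccr2, 0.155 for C1qb and 0.033 for C1qa, the lowest of the list's ranked genes. B cell markers (9 of 9 tested, 8 above 0, median 1.30) summed to 1062 to 5537 CPM in CIS+IT, lowest in CIS+IT 1, and to 646 to 2271 CPM in Control Ab. T cell markers (6 of 9 tested, 1 above 0 and 5 below, median -0.56) summed to 22.4 to 64.2 CPM in CIS+IT and 16.2 to 123 CPM in Control Ab. NK cell markers (3 of 7 tested, 1 above 0 and 2 below, median -0.22) summed to 7.36 to 48.7 CPM in CIS+IT and 9.51 to 65.4 CPM in Control Ab.

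Neutrophil, erythroid and platelet markers all had fold changes below 0 where tested, and none passed edgeR's test. Neutrophil markers (6 of 9 tested, median -1.63) summed, mostly through Retnlg, to 4529 to 13734 CPM in CIS+IT and 4970 to 15664 CPM in Control Ab. Erythroid markers (8 listed, 7 found and tested, median -2.74) summed to 12204 to 44925 CPM in CIS+IT, and to 9183, 1522, 430782 and 293998 CPM in Control Ab 1 to 4. Platelet markers (7 of 7 tested, median -1.72) summed to 716 to 2744 CPM in CIS+IT, and to 258, 140.2, 9802 and 8012 CPM in Control Ab 1 to 4. Control Ab 3 and Control Ab 4, high in both, had the 2 highest summed IRG levels among the controls in TMM-scaled CPM. Their TMM factors were 0.670 and 0.703, against 0.979 or more elsewhere, and the order depends on this scaling. In unscaled counts the family held 620 of 3733156 in Control Ab 3 and 1521 of 6721060 in Control Ab 1, a higher share in Control Ab 1. The part of these cell types in the IRG values was not tested.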

How the data were processed

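RNA of sorted mouse blood eosinophils was sequenced in 11 libraries. The authors deposited 1 table of raw read counts by Ensembl gene. The tools HISAT2 2.10, SAMtools 1.15.1 and bcl2fastq 2.20.0.422 and the build GRCm38 are named, per the submitters' processing notes. Neither the counting program and its strand setting nor the annotation release was given in the sources used here. One row naming no gene held 0 counts and was left out.

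Groups were taken from the labels. The counts were tested with edgeR 4.0.16 (R 4.3.3) by the robust quasi-likelihood test with TMM scaling, the filterByExpr filter, no covariates and a threshold of 0.05 after Benjamini-Hochberg adjustment over 11389 genes. Fold changes are CIS+IT minus Control Ab. DESeq2 1.42.0, limma 3.58.1, other scalings and filters, covariates and left-out libraries were alternatives. The test was run on simulated counts first. Those counts had less spread than the data and larger changes than those fitted for the members. That run therefore does not show the power of the test on these libraries. No pair of libraries agreed within sampling noise (chi-square per gene 59.2 or more).

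Named genes were the 8 members, the 2 most abundant of each list, the interferon gamma axis, and the 8 genes of at least 10 CPM most correlated with the members; 1 gene under this rule is not reported here. The members and lists were chosen with earlier results of these data known. Exon lengths and reading frames came from GENCODE M21, and start-site windows from RefSeq. Totals of 3733156 to 8016658 counts limit the precision of the low members.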

Additional observations from a re-analysis of the deposited data

Results flagged for a closer look

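Tgtp1 in Control Ab 1 stood at 0.254 CPM, 2 counts, while the other 3 controls were at 0, a gap that spans the group's whole range. With so few counts this is close to the limit of detection, and of the 15 sets of values tested in this way 1 was picked out.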

How the results depend on the processing

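No IRG member passed the threshold under any setting run, and the median log2 fold change of the tested members stayed above 0, at 0.39 to 1.18 when 1 library was left out (lowest without CIS+IT replicate 6). It was 2.41, over 7 fitted members, without Control Ab 3 and Control Ab 4; the cause was not tested. With identifier letters as a covariate it was 1.57, and within KDV, a setting chosen after seeing the data, 1.68. Over all genes DESeq2 called 82 where edgeR called 0; the cause was not tested. The replicate numbers did not pair the samples (correlations of deviations -0.04, 0.02, -0.11 and -0.05): with a replicate block over replicates 1 to 4 the median was 0.45, and 0.59 on the same libraries without it, a setting also added after seeing the data. Gm12250 turned negative in 3 settings: -0.66 with the replicate block, -0.10 on the same libraries without it, and -0.33 without CIS+IT replicate 6, the lowest of a range up to 1.52 when 1 library was left out. Depth limits Iigp1 and Tgtp1, which had 120 and 15 counts.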
